A study of Mus musculus with 8 samples.

Results

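The 3 Pim kinase genes of the mouse, Pim1, Pim2 and Pim3, were followed across 8 RNA sequencing libraries of common lymphoid progenitors (CLPs), the bone marrow cells from which B, T and natural killer cells descend. They were picked by symbol from the 39179 Ensembl gene IDs that each library lists. The family was picked with earlier results of the comparison of cultured and fresh cells known, so the values of the 3 genes in that comparison are given as a description, with no p-value, and support nothing further. Of the 8 libraries, 4 are labelled cCLP and 4 are labelled ex vivo CLP. The cCLP libraries came from C57BL/6 bone marrow progenitors that had spent 2 months in vitro on OP9, a mouse bone marrow stromal line, in KIDMEM medium with IL-7 at low dose and Flt3L, the Flt3 ligand, before they were sorted. The ex vivo CLP libraries came from progenitors sorted fresh from C57BL/6 bone marrow. Both groups were sorted with one gate, Lin-Flk2+IL7R+CD27+Ly6d-, where Flk2 is the product of Flt3. The labels give no age, no animal, no culture and no batch, so p-values reflect the spread among these 8 libraries alone, and that spread may be technical.

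Pim kinases are short serine/threonine kinases that are active as soon as they are made, so the amount of protein, and with it the supply and decay of the mRNA, sets much of their activity. Cytokine receptors that signal through JAK kinases and STAT transcription factors, the IL-7 receptor among them, induce Pim genes in lymphoid and myeloid cells, and the kinases phosphorylate proteins of survival, cell cycle entry and translation, among them BAD, the inhibitors p27 and p21, and regulators of mTOR. Pim1 and Pim2 were found as sites of retroviral insertion in mouse lymphomas, and Pim3 is the third paralog.

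The deposited values are whole numbers on a scale that no label names. They spread less between libraries than read counts can, so sequencing depth cannot be read from them. Their sums lay between 434009 and 604733 in the cCLP libraries and between 378594 and 704305 in the ex vivo CLP libraries, with 11371 to 12779 genes above 0. Values below are scaled values, that is deposited values divided by a library factor, unless they are called deposited. The library labelled cCLP 1 resembled ex vivo CLP 1, 3 and 4 more closely (Spearman's rho across genes 0.973 to 0.985) than cCLP 2, 3 and 4 (0.891 to 0.895). The library labelled ex vivo CLP 2 resembled cCLP 2, 3 and 4 more closely (0.981 to 0.989) than ex vivo CLP 1, 3 and 4 (0.870 to 0.898). Whether these labels were exchanged cannot be told from the files, and no library was moved, so the 8-library means and fold changes hold only if the labels are right. The Pim values are given over the 8 libraries as labelled and over the 6 libraries without these, cCLP 2, 3 and 4 against ex vivo CLP 1, 3 and 4. Values of single marker, neighbour and list genes are given over the 6, and over the 8 none of them was called. The 6 libraries were picked from where the profiles of these same genes lie. That choice takes values far from their labelled group out of the spread, so p-values over the 6 tend to be too small. They are given as a description and cannot be read at face value. The sort genes Flt3, Il7r and Cd27 were above 0 in all libraries, while Ly6d, whose product was sorted against, had a deposited value of 1 in each of cCLP 2 to 4 and 22 in cCLP 1, against 28, 28 and 41 in ex vivo CLP 1, 3 and 4 and 0 in ex vivo CLP 2.

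Pim1 (ENSMUSG00000024014) lies on the plus strand of chromosome 17, from 29490753 to 29496112 on GRCm38, and had the widest range of the family. The 300 bases around each start site that RefSeq annotates for Pim1 on GRCm38.p6 are shown because this is the gene that differed most. The first covers chr17:29490535-29490834 and the second, inside the gene, chr17:29492835-29493134. Both are on the plus strand and run 5′ to 3′. Capitals mark GC boxes (GGGCGG) in the first and an E-box (CACGTG) in the second, on either strand.
Pim1 first start: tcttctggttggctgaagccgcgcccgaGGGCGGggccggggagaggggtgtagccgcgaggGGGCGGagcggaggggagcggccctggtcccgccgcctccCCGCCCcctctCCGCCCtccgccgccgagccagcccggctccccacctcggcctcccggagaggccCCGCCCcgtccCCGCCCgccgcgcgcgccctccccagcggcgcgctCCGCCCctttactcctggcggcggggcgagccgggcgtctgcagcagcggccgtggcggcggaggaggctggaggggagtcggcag
Pim1 second start: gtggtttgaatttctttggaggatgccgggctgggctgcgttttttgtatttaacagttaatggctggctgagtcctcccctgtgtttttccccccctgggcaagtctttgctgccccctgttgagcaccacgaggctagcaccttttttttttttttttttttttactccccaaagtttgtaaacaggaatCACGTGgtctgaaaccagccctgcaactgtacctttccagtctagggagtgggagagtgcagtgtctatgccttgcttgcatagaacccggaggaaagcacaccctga
The first window is 81.3% G and C, against a median of 52.7% over 32851 RefSeq promoter windows, and holds 7 GC boxes, a motif found in 35.7% of all windows. The second window is 49% G and C and holds 1 E-box, found in 7.15% of all windows. Neither holds a STAT site written as TTCNNNGAA on either strand, which 8.3% of all windows hold, and no match says only that these letters are not in these windows.

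Pim1 was at 17.0, 17.2 and 17.6 in cCLP 2, 3 and 4 and at 251 in cCLP 1, against 189.8, 227 and 234 in ex vivo CLP 1, 3 and 4 and 14.6 in ex vivo CLP 2. The 8 values form a low set and a high set with none between them, and each labelled group holds 1 library on the other side. Over the 8 libraries as labelled, Pim1 averaged 75.7 ± 117 (SD, n = 4) in cCLPs and 166 ± 103 (SD, n = 4) in ex vivo CLPs, a log2 fold change of -1.67 ± 1.15 (SE), and the groups overlapped. Over the 6 libraries it averaged 17.3 ± 0.305 (SD, n = 3) in cCLP 2 to 4 and 217 ± 23.8 (SD, n = 3) in ex vivo CLP 1, 3 and 4. The log2 fold change was then -3.57 ± 0.11 (SE), and the ratio of the means, ex vivo CLP over cCLP, was 12.6. In these bulk libraries, fewer cells with Pim1 RNA and less Pim1 RNA per cell cannot be told apart.

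A gene was tested where its scaled value reached 10 in at least 3 of the 6 libraries, or 4 of the 8. Ordered by log2 fold change from the lowest, Pim1 was 111th of 6622 genes tested over the 6 libraries. By deposited value Pim1 ranked 4318th, 4250th and 4218th from the top in cCLP 2, 3 and 4 and 227th in cCLP 1, against 290th, 301st and 268th in ex vivo CLP 1, 3 and 4 and 4754th in ex vivo CLP 2. In each library 11371 to 12779 genes were above 0.

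**Figure D1:**
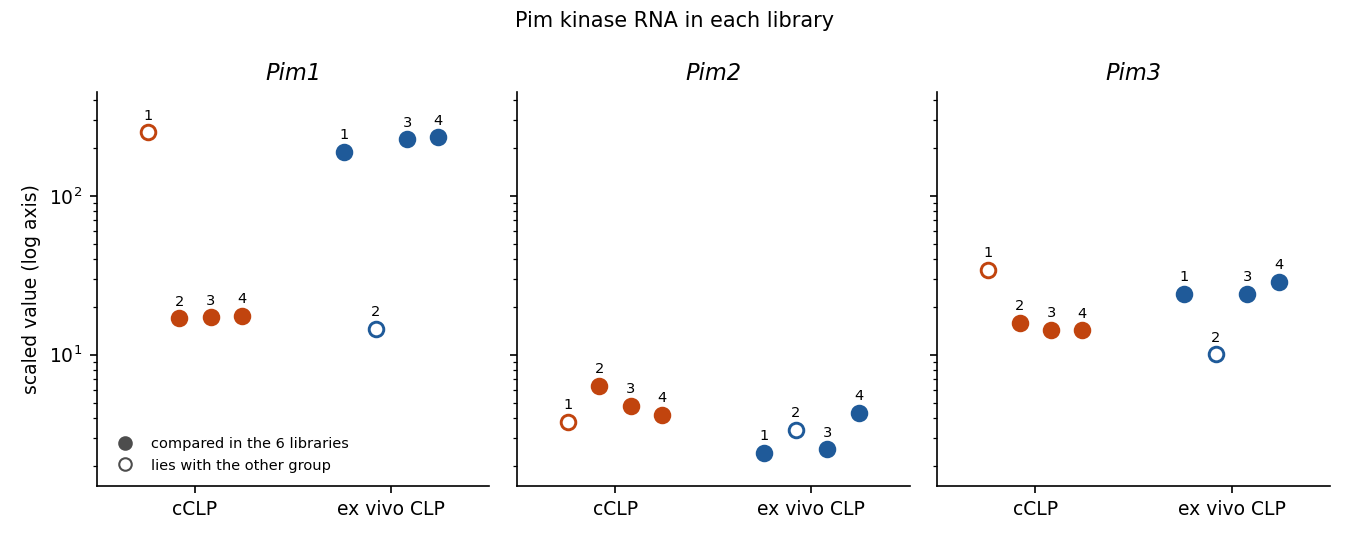
Scaled value (log axis) of Pim1, Pim2 and Pim3 in each library, with replicate numbers above the points and cCLP left of ex vivo CLP. Open points are cCLP 1 and ex vivo CLP 2, whose whole profiles lie with the other group. Pim1 sits at 17.0 to 17.6 in cCLP 2 to 4 and at 189.8 to 234 in ex vivo CLP 1, 3 and 4, Pim3 moves the same way over a narrower range, and Pim2 stays under 10 everywhere.

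Pim3 (ENSMUSG00000035828, chromosome 15, 88862186 to 88865726, plus strand) followed the direction of Pim1 over a much smaller range. Its promoter window, chr15:88861944-88862243 on the plus strand of GRCm38.p6 from RefSeq, is shown beside that of Pim1 because the 2 genes were lower in the same libraries. Capitals mark GC boxes and CCAAT boxes (CCAAT, here on the minus strand).
Pim3 start: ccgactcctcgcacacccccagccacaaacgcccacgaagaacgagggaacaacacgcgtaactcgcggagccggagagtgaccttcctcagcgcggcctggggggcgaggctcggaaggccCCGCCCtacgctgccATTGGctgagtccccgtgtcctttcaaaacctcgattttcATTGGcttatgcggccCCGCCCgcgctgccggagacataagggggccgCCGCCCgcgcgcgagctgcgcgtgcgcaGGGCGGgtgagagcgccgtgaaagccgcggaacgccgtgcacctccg
This window is 69% G and C, holds 4 GC boxes and 2 CCAAT boxes (a motif of 37.4% of all windows), and has no STAT site of the form searched. Pim3 was at 15.9, 14.3 and 14.3 in cCLP 2, 3 and 4 and at 34.2 in cCLP 1, against 24.2, 24.1 and 28.7 in ex vivo CLP 1, 3 and 4 and 10.1 in ex vivo CLP 2. As for Pim1, cCLP 1 had the highest value of all and ex vivo CLP 2 the lowest. Over the 8 libraries Pim3 averaged 19.7 ± 9.71 (SD, n = 4) in cCLPs and 21.8 ± 8.08 (SD, n = 4) in ex vivo CLPs, a log2 fold change of -0.15 ± 0.38 (SE) that is smaller than its SE and that became 0.013 without ex vivo CLP 4. Over the 6 libraries it averaged 14.8 ± 0.956 (SD, n = 3) in cCLP 2 to 4 and 25.7 ± 2.63 (SD, n = 3) in ex vivo CLP 1, 3 and 4, a log2 fold change of -0.75 ± 0.11 (SE).

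Pim2 (ENSMUSG00000031155, chromosome X, 7878262 to 7883432, plus strand) was low in all 8 libraries. Its window, chrX:7878056-7878355 on the plus strand of GRCm38.p6 from RefSeq, is shown for contrast with its paralogs, with capitals marking 1 CCAAT box on the minus strand and 1 GC box.
Pim2 start: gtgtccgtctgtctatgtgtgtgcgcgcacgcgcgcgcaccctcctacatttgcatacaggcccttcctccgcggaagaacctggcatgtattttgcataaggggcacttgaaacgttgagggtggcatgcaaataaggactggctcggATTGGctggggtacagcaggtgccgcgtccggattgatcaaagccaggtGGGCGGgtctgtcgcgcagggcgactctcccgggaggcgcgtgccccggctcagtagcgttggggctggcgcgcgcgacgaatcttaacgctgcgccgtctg
The deposited values of Pim2 were 6, 5 and 5 in cCLP 2, 3 and 4 and 4 in cCLP 1, against 2, 2 and 6 in ex vivo CLP 1, 3 and 4 and 3 in ex vivo CLP 2. A step of 1 in these whole numbers is a large share of each value, and the groups overlapped with and without cCLP 1 and ex vivo CLP 2. Pim2 never reached a scaled value of 10 and did not enter the fit across all genes. Fitted without the filter on low values, its log2 fold change was 0.48 ± 0.21 (SE) over the 8 libraries and 0.60 ± 0.22 (SE) over the 6, on the log2(value + 1) scale, which understates ratios of low values. Of the 2719 distinct runs of 75 bases in its annotated transcripts, 11 also occur in the processed pseudogenes Gm21182 and Gm7645, whereas Pim1 and Pim3 share none with any other gene. The 3 paralogs share no run longer than 24 bases with each other, so reads of 75 bases can be told apart between them. An annotated antisense transcript, Gm26885, overlaps the start of Pim1 and was listed at 0 in all 8 libraries.

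Because Pim1 differed more than Pim3, the make-up of the family differed between the libraries. The labels do not say whether values were divided by gene length. The median value fell with exonic length, at 26.4, 20.5, 17.1 and 14.9 over 4 bins of genes from short to long, so the values may already be scaled by length and levels of the 3 genes are compared both as they stand and per kb of annotated exon (3362 bases for Pim1, 2795 for Pim2 and 2427 for Pim3). Per kb, Pim1 made up 36.4%, 40.2% and 41.5% of the summed Pim value in cCLP 2, 3 and 4 and 82.8% in cCLP 1, against 83.9%, 86.2% and 83.9% in ex vivo CLP 1, 3 and 4 and 44.7% in ex vivo CLP 2. Pim3 made up 47.2%, 46.4% and 46.6% in cCLP 2, 3 and 4, against 14.8%, 12.7% and 14.3% in ex vivo CLP 1, 3 and 4. As the values stand, Pim1 made up 43.2%, 47.4% and 48.8% in cCLP 2, 3 and 4, against 87.7%, 89.5% and 87.6% in ex vivo CLP 1, 3 and 4. In ex vivo CLP 1, 3 and 4 the order of levels was Pim1, then Pim3, then Pim2 on both scales. In cCLP 2 to 4 Pim2 was again the lowest on both scales, but the order of the other two depended on the scale. The ratio of Pim1 to Pim3 was 1.07, 1.20 and 1.24 there as the values stand and 0.770, 0.866 and 0.892 per kb, so neither can be called the higher. In ex vivo CLP 1, 3 and 4 the same ratio was 7.85, 9.42 and 8.15 as the values stand. The summed scaled value of the 3 genes was 39.3, 36.3 and 36.1 in cCLP 2, 3 and 4 and 289 in cCLP 1, against 216, 254 and 267 in ex vivo CLP 1, 3 and 4 and 28.1 in ex vivo CLP 2.

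**Figure D2:**
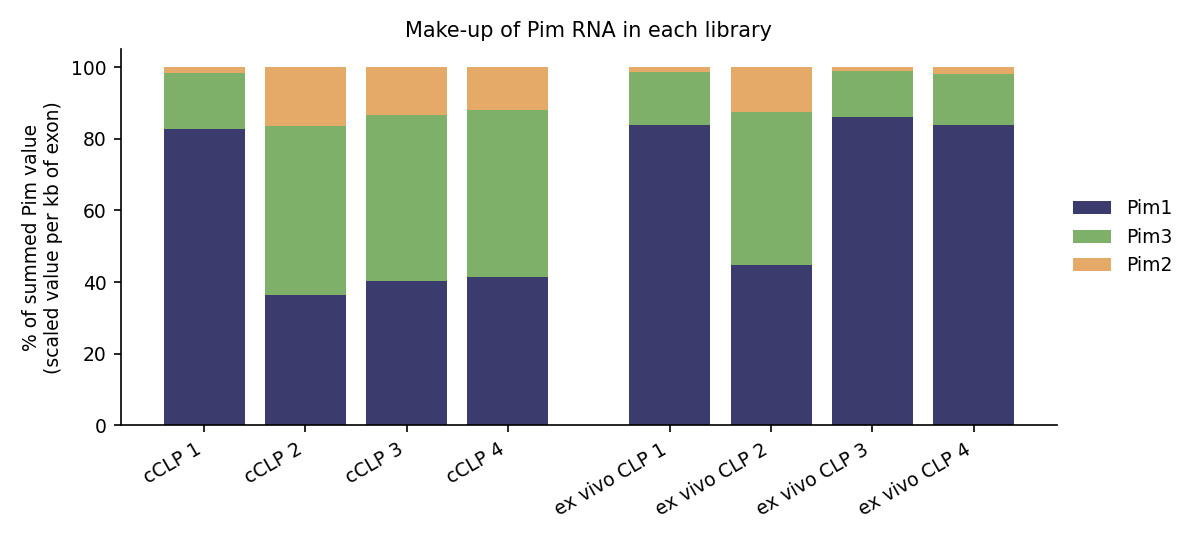
Share of each Pim gene in the summed Pim value of a library, in % of scaled values per kb of annotated exon, with the 4 cCLP libraries left of the 4 ex vivo CLP libraries. Pim1 makes up 36.4% to 41.5% in cCLP 2 to 4 and 83.9% to 86.2% in ex vivo CLP 1, 3 and 4, with cCLP 1 and ex vivo CLP 2 on the other side.

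In a linear model of log2(scaled value + 1) fitted across all genes with limma, 0% of the 6580 genes tested over the 8 libraries passed an adjusted p of 0.05, 510 had an unadjusted p under 0.05, and 0 of the 2 Pim genes tested, Pim1 and Pim3, passed. Over the 6 libraries 43.1% of the 6622 genes tested passed, 20.7% higher and 22.4% lower in cCLP 2 to 4, and both Pim1 and Pim3 were among the lower. Since the members were picked from this contrast, nothing is read from that count. The residual SD of both genes over the 6 libraries, 0.12 on the log2 scale for each, was under the median of all genes tested, 0.15, and over the 8 libraries it was 1.90 for Pim1 and 0.61 for Pim3 against a median of 0.22. The libraries left out, cCLP 1 and ex vivo CLP 2, held the highest and the lowest value of both genes. A smaller residual SD over the 6 is therefore built into the choice.

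**Figure D3:**
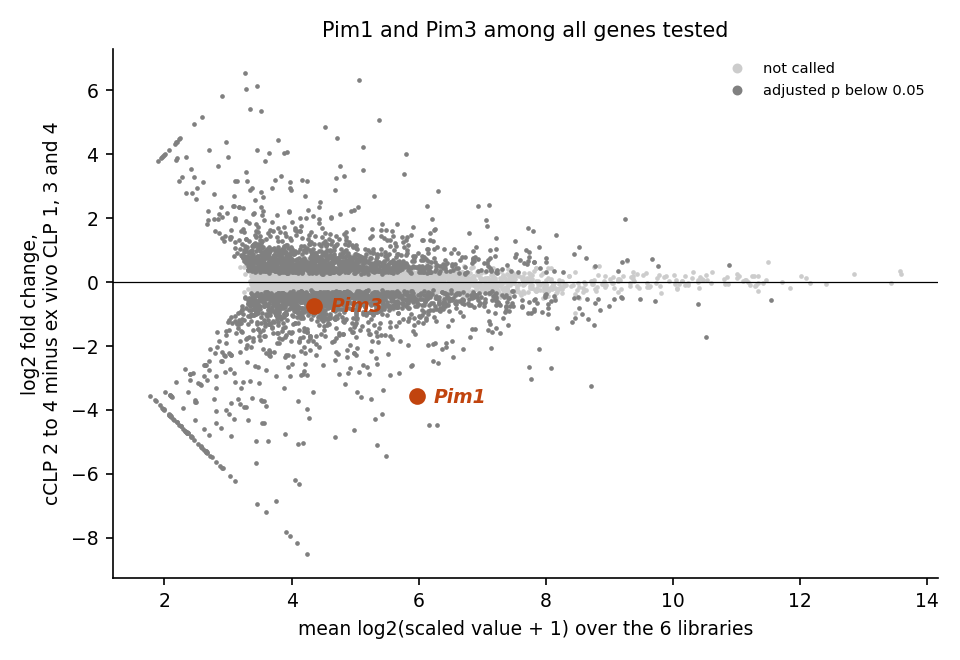
Mean level over the 6 libraries, as log2(scaled value + 1), against the log2 fold change of cCLP 2 to 4 over ex vivo CLP 1, 3 and 4, for the 6622 genes tested, with genes past an adjusted p of 0.05 in dark grey. Pim1 is at -3.57 and Pim3 at -0.75.

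Markers of other cell types differed between the same libraries. All 10 genes of the myeloid list (Mpo, Elane, Prtn3, Ctsg, Lyz2, S100a8, S100a9, Csf1r, Csf3r and Cebpa) were called lower in cCLP 2 to 4, but all except Mpo were under 10 there and could be called only lower. Their summed scaled value was 269 to 294 in cCLP 2 to 4, against 1313 to 3148 in ex vivo CLP 1, 3 and 4. It was 1689 in cCLP 1 and 171 in ex vivo CLP 2. Elane, Ctsg, S100a8, S100a9, Csf1r and Csf3r were at 0 in each of cCLP 2 to 4. Of the 7 dendritic genes 6 were called lower, 5 of them (all but Bst2) under 10 in each of cCLP 2 to 4, with sums of 62.0 to 78.3 in cCLP 2 to 4 against 428 to 553 in ex vivo CLP 1, 3 and 4, and H2-Aa and H2-Ab1 were at 0 in cCLP 2 to 4. The 8 B lineage genes summed to 284 to 355 in cCLP 2 to 4, most of it Rag1, against 35.2 to 50.8 in ex vivo CLP 1, 3 and 4. Of the 2 tested, Rag1, at deposited values of 7, 1 and 2 in ex vivo CLP 1, 3 and 4, was called higher. Cd79b was called lower. Deposited values were 1, 2 and 4 in cCLP 2, 3 and 4 and 32, 30 and 43 in ex vivo CLP 1, 3 and 4. Each of the 2 was under 10 in every library of 1 group, which fixed its direction. The 7 T and natural killer genes summed to 4.19 to 11.5 in cCLP 2 to 4, against 61.6 to 82.5 in ex vivo CLP 1, 3 and 4, most of it Nkg7 and Cd7, while Cd3e and Bcl11b were at 0 in all 8 libraries. The 7 erythroid genes summed to 4.19 to 7.64 in cCLP 2 to 4, against 8.46 to 44.4 in ex vivo CLP 1, 3 and 4, and Hba-a1, Hba-a2 and Hbb-bs were at 0 in cCLP 2 to 4. Myeloid cells transcribe Pim1 too, and the part of these cell types in the Pim1 and Pim3 values was not tested. Of the 10 OP9 stroma genes 8, the collagen genes among them, were at 0 in all 8 libraries, and the list summed to 9.55 to 18.1 in cCLP 2 to 4 and 6.35 to 13.3 in ex vivo CLP 1, 3 and 4. Deposited values of Fn1 were 11, 7 and 7 in cCLP 2, 3 and 4 against 0, 0 and 1 in ex vivo CLP 1, 3 and 4, and those of Pdgfrb were 6, 3 and 7 against 11, 5 and 11.

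Of the tested neighbours of the Pim genes, Fgd2 and Creld2 were called lower, and Mtch1, Otud5 and Pqbp1 were not called. Over all genes tested in the 6 libraries, 22.4% were called lower and 43.1% in either direction, so nothing is read from so few neighbours. Over the 8 libraries, limma gave adjusted p = 0.482 for Fgd2 and 0.484 for Creld2. For Pim1 the nearest protein-coding gene before it, Fgd2, which encodes an exchange factor for the GTPase Cdc42 and ends 111091 bases away, was at 18.5 ± 0.525 (SD, n = 3) in cCLP 2 to 4 and 50.7 ± 6.90 in ex vivo CLP 1, 3 and 4 (log2 fold change -1.39 ± 0.11 SE, limma adjusted p = 4.72e-05). Mtch1, the next one out, was at 58.2 ± 3.38 in cCLP 2 to 4 and 57.2 ± 6.06 in ex vivo CLP 1, 3 and 4 and was not called. After Pim1, Gm17657 was listed at 0 in all 8 libraries and Tmem217 at 1 in cCLP 3 and 0 in the others. Beside Pim3, Creld2, an endoplasmic reticulum stress gene 35502 bases before it, was at 27.2 ± 2.62 in cCLP 2 to 4 and 38.7 ± 4.24 in ex vivo CLP 1, 3 and 4 (log2 fold change -0.49 ± 0.12 SE, limma adjusted p = 0.0113). Alg12 was too low to test and Ttll8 and Mlc1 were listed at 0. Beside Pim2, Otud5 (29.1 ± 1.34 in cCLP 2 to 4 and 29.8 ± 2.30 in ex vivo CLP 1, 3 and 4) and Pqbp1 (63.1 ± 4.72 and 63.5 ± 9.68) were not called, with log2 fold changes of -0.03 ± 0.10 and 0.00039 ± 0.13 (SE). Slc35a2 was too low to test and Kcnd1 was listed at 0.

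The genes whose pattern over the 8 libraries was most like that of each Pim gene were found by Pearson's r of log2(scaled value + 1) among all genes tested. The libraries fall into a high and a low set, which alone gives a high r, so these values are a description of 8 points with no test. For Pim1 they were Laptm4b, a lysosomal membrane protein gene, Eif4e3, a cap-binding protein gene, and Csf3r, the granulocyte colony-stimulating factor receptor gene, each with r = 0.999. Unlike Pim1, all 3 were listed at 0 in cCLP 2 to 4 and in ex vivo CLP 2. For Pim3 they were Pcbp2 (r = 0.995), which encodes an RNA-binding protein, Phf14 (0.989) and Sec31a (0.989), a coat gene of endoplasmic reticulum export vesicles. Pcbp2 was at 55.4 in cCLP 2 to 4 and 63.7 in ex vivo CLP 1, 3 and 4, a far narrower range than that of Pim3. For Pim2 they were Nfatc1 (r = 0.987), Ubxn7 (0.987) and Wasf2 (0.986). With deposited values of 2 to 6, the pattern of Pim2 is set by few steps.

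Beyond the family, 96 genes in 6 lists of Pim regulation and action were described, of which 76 were tested over the 6 libraries. Of these, 10 were called higher and 24 lower in cCLP 2 to 4, to be read against 20.7% and 22.4% of all genes, and over the 8 libraries 0 were called. Some of those called, more of them lower than higher, were under 10 in every library of 1 group. That fixed their direction, as given list by list below, so no lean of the lists is read from the totals. All values below are over the 6 libraries, between which the myeloid and other marker sums differed as given above, and the part of those cells in the list values was not tested. The median log2 fold change of all genes tested was -0.0015.

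Of the 15 receptor and JAK-STAT genes, all tested, 2 were higher and 6 lower, with a median log2 fold change of -0.18. The receptor genes went opposite ways, and the product of Il7r was part of the sort. Il7r, the IL-7 receptor alpha chain, had scaled values of 226, 195 and 215 in cCLP 2, 3 and 4, against 73.7, 17.8 and 17.2 in ex vivo CLP 1, 3 and 4, and rose by a log2 fold change of 2.85 ± 0.51 (SE, limma adjusted p = 0.00366). Its partner Il2rg, the common gamma chain, also rose (0.85 ± 0.12, limma adjusted p = 0.00105). Kit, the stem cell factor receptor, fell (-1.44 ± 0.14, limma adjusted p = 0.000108). Stat5b, one of the STATs that act on Pim genes, was at 33.0, 31.5 and 31.9 in cCLP 2, 3 and 4, against 32.6, 33.0 and 36.6 in ex vivo CLP 1, 3 and 4 (-0.08 ± 0.09 SE, not called). Stat5a was at 7.44, 7.64 and 7.55 in cCLP 2, 3 and 4, against 12.1, 11.4 and 14.4 in ex vivo CLP 1, 3 and 4, and fell (-0.67 ± 0.12 SE, limma adjusted p = 0.00331). Since it was under 10 in each of cCLP 2 to 4, it entered the fit only through ex vivo CLP 1, 3 and 4. Stat3 fell by 0.42 on the log2 scale (limma adjusted p = 0.0214) but did not pass once ex vivo CLP 3 or 4, or any 1 of cCLP 2 to 4, was left out (highest adjusted p = 0.0725). Jak2 and Ptpn2 fell as well, and Jak1, Jak3, Tyk2, Flt3, Ptpn6 and Ptpn11 were not called.

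Of 13 other genes that cytokines induce through STATs 8 were tested, 1 higher and 5 lower, with a median log2 fold change of -1.08. The 1 higher, Socs2, and 2 of the 5 lower entered the fit only through the group where they were high. Socs3, a feedback inhibitor of cytokine receptors, was at 1.06, 0.955 and 0.838 in cCLP 2, 3 and 4, against 19.3, 36.8 and 38.0 in ex vivo CLP 1, 3 and 4, and fell with Pim1 (-3.99 ± 0.25 SE, limma adjusted p = 1.16e-05). Socs2, of the same family, was at 43.6, 47.8 and 42.8 in cCLP 2, 3 and 4, against 3.63, 1.27 and 0.718 in ex vivo CLP 1, 3 and 4, and rose (4.12 ± 0.32 SE, limma adjusted p = 4.43e-05). Each of these 2 was under 10 in every library of 1 group, which fixed its direction. The survival genes Bcl2 and Mcl1 fell. Bcl2 was at 19.8 ± 0.494 (SD, n = 3) in cCLP 2 to 4 and 49.7 ± 8.93 in ex vivo CLP 1, 3 and 4 (-1.27 ± 0.14 SE, limma adjusted p = 0.00024). Mcl1 was at 106 ± 7.07 in cCLP 2 to 4 and 277 ± 72.5 in ex vivo CLP 1, 3 and 4 (-1.34 ± 0.19 SE, limma adjusted p = 0.000856). Ccnd3 fell, and so did Osm, which was under 10 in each of cCLP 2 to 4 and could only be called lower. Myc (0.16 ± 0.26 SE) and the cyclin gene Ccnd2 (-0.89 ± 0.44 SE) were not called, although Ccnd2 passed, at -1.41, without ex vivo CLP 3. Cish, a direct STAT5 target, was listed at 0 in cCLP 2 to 4 and averaged 1.30 in ex vivo CLP 1, 3 and 4, and Socs1 averaged 3.42 and 3.27 in the same order, so neither was tested.

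Of the 8 other transcription factors that act at Pim genes, 4 were tested, of which 2 were lower and none higher. Nfkb1, an NF-kB subunit gene, was at 54.5 ± 4.93 (SD, n = 3) in cCLP 2 to 4 and 99.8 ± 10.3 in ex vivo CLP 1, 3 and 4 (-0.86 ± 0.12 SE, limma adjusted p = 0.000711), and the ETS factor gene Erg fell too (-1.27 ± 0.13 SE, limma adjusted p = 0.000166). Rela was not called. Hoxa9, whose product regulates Pim1 in mouse blood-forming cells, was at 27.6 ± 3.6 in cCLP 2 to 4 and 19.2 ± 6.53 in ex vivo CLP 1, 3 and 4 (0.55 ± 0.21 SE, limma adjusted p = 0.0723). It passed, at 0.80, without ex vivo CLP 1.

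Genes for proteins that Pim kinases phosphorylate went both ways. Of 24, 21 were tested, 4 higher and 5 lower, with a median log2 fold change of 0.09. Of the genes tested, 2 entered the fit only through ex vivo CLP 1, 3 and 4 and 1 only through cCLP 2 to 4, which fixed their direction. Cdkn1b, which encodes p27, was at 12.8, 13.4 and 12.6 in cCLP 2, 3 and 4, against 31.4, 27.9 and 34.4 in ex vivo CLP 1, 3 and 4, and fell (-1.21 ± 0.10 SE, limma adjusted p = 6.34e-05). Cdkn1a, which encodes p21, fell (-1.71 ± 0.46 SE, limma adjusted p = 0.0188), and was under 10 in each of cCLP 2 to 4. Without cCLP 4 its log2 fold change was -1.38 ± 0.48 (SE), which did not pass. The chemokine receptor gene Cxcr4 was at 43.6, 52.5 and 47.0 in cCLP 2, 3 and 4, against 123, 218 and 193 in ex vivo CLP 1, 3 and 4, the largest fall of this list (-1.84 ± 0.20 SE, limma adjusted p = 0.00025). Myb, a progenitor transcription factor gene, was the largest rise, at 473 ± 39.3 (SD, n = 3) in cCLP 2 to 4 and 260 ± 34.8 in ex vivo CLP 1, 3 and 4 (0.87 ± 0.13 SE, limma adjusted p = 0.0015). Bad, the proapoptotic BCL2 family gene, was at 19.4 ± 1.17 in cCLP 2 to 4 and 17.1 ± 2.95 in ex vivo CLP 1, 3 and 4 and was not called. Foxo3 was at 17.1 ± 1.08 and 15.2 ± 2.30 in the same order, also not called, and Foxo1 was too low to test. Eif4b, a translation initiation factor gene, passed (0.33 ± 0.11 SE, limma adjusted p = 0.0373) but not without ex vivo CLP 1 or 3 or any 1 of cCLP 2 to 4 (highest adjusted p over these and the other settings 0.264).

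The AKT and mTOR genes belong to kinases that share substrates with the Pim family. Of 24, 18 were tested, 3 higher and 2 lower, with a median log2 fold change of -0.13. Akt1 was at 62.4 ± 1.80 (SD, n = 3) in cCLP 2 to 4 and 69.4 ± 7.0 in ex vivo CLP 1, 3 and 4, and Akt2 at 18.9 ± 0.614 and 20.9 ± 2.49 in the same order, neither of them called. The largest change was that of Sgk3, an AKT-related kinase gene, at 2.13, 2.87 and 1.68 in cCLP 2, 3 and 4 and 39.9, 44.4 and 37.3 in ex vivo CLP 1, 3 and 4 (-3.70 ± 0.16 SE, limma adjusted p = 1.45e-06). It too entered the fit only through ex vivo CLP 1, 3 and 4. Sgk1 was too low to test. Inpp5d, the SHIP1 phosphatase gene, was the largest rise, at 135 ± 2.84 in cCLP 2 to 4 and 71.3 ± 3.29 in ex vivo CLP 1, 3 and 4 (0.91 ± 0.09 SE, limma adjusted p = 0.000123).

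**Figure D4:**
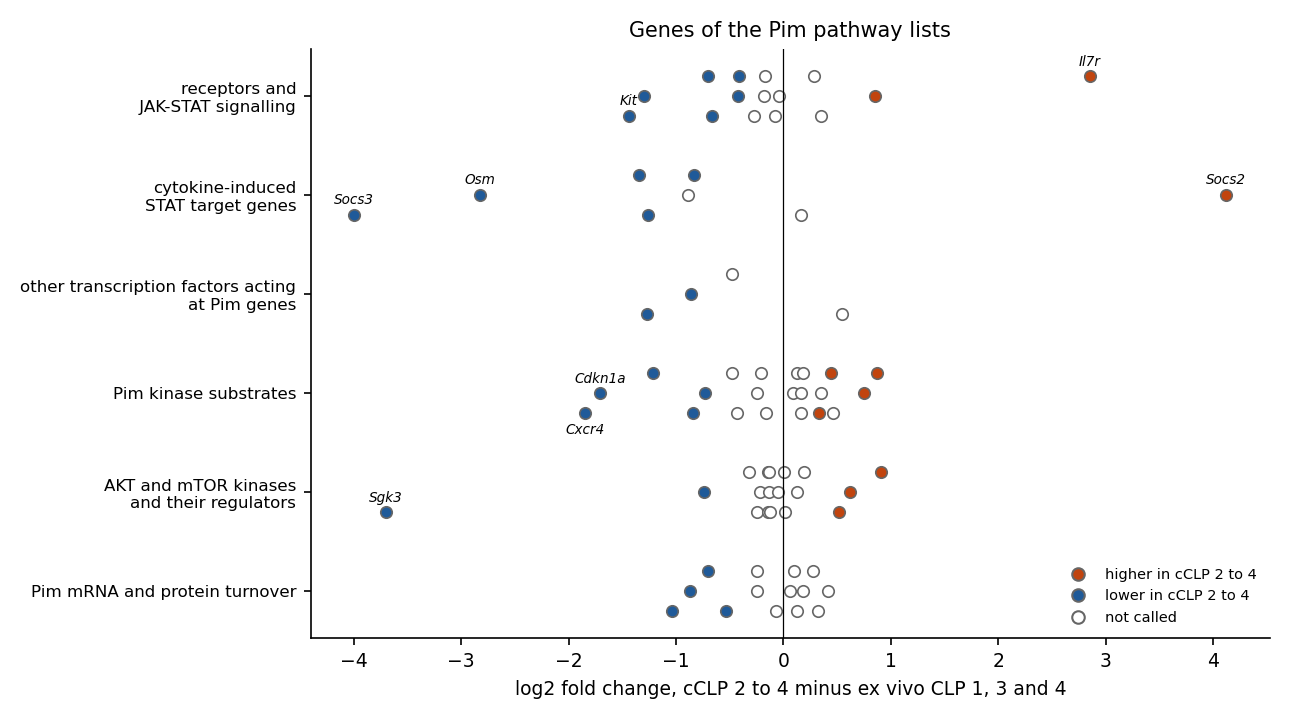
Log2 fold change, cCLP 2 to 4 minus ex vivo CLP 1, 3 and 4, of each tested gene in the 6 lists, filled where called and open where not. Of the 76 genes, 10 are higher and 24 lower, to be read against 20.7% and 22.4% of all genes tested. The extremes are Socs3 at -3.99 and Socs2 at 4.12, both cytokine-induced. Each of these 2 was under 10 in every library of 1 group, which fixed its direction.

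Pim mRNAs turn over fast, and ZFP36 proteins bind AU-rich stretches in the 3′ end of human PIM1 mRNA and speed its decay. In the longest annotated 3′ UTR of mouse Pim1, 1365 bases, the pentamer ATTTA occurs 5 times and the nonamer TTATTTATT 3 times, counting overlaps and only the mRNA strand. Of 1406 other genes whose 3′ UTR is within 10% of this length, 7.11% hold the nonamer at all and 0.284% hold it at least 3 times. The stretch that holds most of these letters, bases 939 to 968 of the 3′ UTR, is shown with ATTTA in capitals.
Pim1 3′ UTR: agttttaatgtATTTATTTATTTATTTAtt
The 3′ UTR of Pim3, 964 bases, holds the pentamer 5 times, a number that 8.08% of 1337 UTRs of like length reach, and that of Pim2, 915 bases, holds it 2 times, and neither holds the nonamer. Among tested genes other than the family, those with the nonamer were called in both directions. Of 426 genes with at least 1 nonamer, 29.6% were called higher and 22.5% lower in cCLP 2 to 4, against 20.1% and 22.7% of 5948 genes without one. Of the 40 genes with at least 3, 12 were higher and 11 lower. These sets were not matched for the length of the 3′ UTR, and a longer one has more places for the nonamer. An effect of the nonamer was not tested.

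Of 16 genes for turnover of Pim mRNA and protein, 14 were tested, 0 higher and 4 lower, with a median log2 fold change of -0.01. All 3 members of the Zfp36 family tested were among the 4, where 22.4% of all genes tested were lower. Zfp36 was at 121, 119 and 124 in cCLP 2, 3 and 4, against 149.9, 244 and 301 in ex vivo CLP 1, 3 and 4 (-0.87 ± 0.23 SE, limma adjusted p = 0.0175), and did not pass once ex vivo CLP 3 or any 1 of cCLP 2 to 4 was left out (highest adjusted p = 0.0589). Zfp36l1 fell (-1.04 ± 0.23 SE, limma adjusted p = 0.00847) but was under 10 in each of cCLP 2 to 4. Zfp36l2 was at 97.5 ± 16 (SD, n = 3) in cCLP 2 to 4 and 159 ± 30.1 in ex vivo CLP 1, 3 and 4 (-0.70 ± 0.17 SE, limma adjusted p = 0.0126). Hspa8, a chaperone gene, was the fourth (-0.54 ± 0.18 SE, limma adjusted p = 0.0395). Hsp90ab1, whose product stabilises Pim1 protein, was at 1380 ± 52.8 in cCLP 2 to 4 and 1330 ± 156 in ex vivo CLP 1, 3 and 4 and was not called, and neither were the PP2A subunit genes Ppp2ca, Ppp2cb and Ppp2r1a.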

How the data were processed

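RNA of 8 sorted progenitor samples was sequenced as paired reads of 75 nt from stranded libraries made from 100 ng of total RNA, per the labels' protocols. The submitters' processing notes name TopHat2, Bowtie2, HTSeq 1.0.6 and GRCm38 (mm10); the strand setting, annotation release and later scaling are not given in the sources used here. Values were deposited as a score: 1 whole number per gene, on a scale no source names. It is not a count: for genes with mean values of 5 to 50 the dispersion index between cCLP 3 and 4 was 0.260, where simulated Poisson counts gave 1.02, and that between ex vivo CLP 3 and 4 was 0.540, where they gave 0.986. Count models were therefore not used, and neither intervals for counting error nor detection limits can be given.

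Gene IDs were matched to GENCODE vM21 (37607 of 39179). Libraries were scaled by a trimmed mean of log ratios, with 30% of ratios and 5% of levels trimmed. Genes entered the fit if scaled values reached 10 in a number of libraries equal to the smaller group's size. log2(scaled value + 1) was fitted with limma 3.58.1 in R 4.3.3 (trend, robust), two-sided, with Benjamini-Hochberg adjustment over all genes tested and a threshold of 0.05. The fit was tested on simulated data. Tables used Python 3.11.15 and pandas 2.3.3. Log2 fold changes are given as cCLP over ex vivo CLP.

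The members, lists, markers and the 6-library comparison were chosen with earlier results of these data known. The genes named outside the family were 27 fixed by name, the called gene with the largest change each way in each list, the 3 likest genes and the 2 nearest protein-coding neighbours on either side of each Pim gene; other list genes, and the motifs and 3′ UTR letters were chosen after values or sequences were seen. Alternatives were other scalings, a pseudocount of 5, no filter on low values, the replicate number as a block and leaving out each library. Some list genes are not reported here by name.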

Additional observations from a re-analysis of the deposited data

Results flagged for a closer look

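Among the 6 groups of 4 libraries formed by the 3 Pim genes and the 2 labels, 2 held a library far from the others, a rule that chance meets in about 1 of 20 groups. The family was picked from these values and cCLP 1 already lay apart by its whole profile, so this describes that library once more and adds no evidence. Pim1 in cCLP 1 was at a scaled value of 251, against 17.0 to 17.6 in cCLP 2 to 4, and Pim3 in cCLP 1 was at 34.2, against 14.3 to 15.9. The gap to the nearest other library was 0.997 of the group's range for Pim1 and 0.915 for Pim3, above the limit of Dixon's test at 95% for 4 libraries. In the ex vivo CLP group the gap of ex vivo CLP 2, the lowest, was 0.799 of the range for Pim1 and 0.754 for Pim3, below that limit.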

How the results depend on the processing

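For Pim1 and Pim3, cCLP 1 held the highest value of all and ex vivo CLP 2 the lowest. Leaving out both could only deepen the fall, so it is no check of the direction. Over the 8 libraries, leaving out 1 library gave log2 fold changes of -2.62 to -1.32 for Pim1, 0.36 to 0.61 for Pim2 and -0.46 to 0.013 for Pim3, the last without ex vivo CLP 4, where the sign turned, and 0 genes were called higher or lower over all genes or in the lists. Over the 6 libraries the ranges were -3.66 to -3.51 for Pim1, 0.45 to 0.80 for Pim2 and -0.80 to -0.67 for Pim3, with 918 to 1530 genes higher and 1217 to 1827 lower over all genes and 8 to 14 higher and 20 to 33 lower in the lists. A pseudocount of 5 gave -3.31 for Pim1 and -0.63 for Pim3, as its construction shrinks low values, and for Pim2 0.32 over the 6 libraries and 0.26 over the 8, a move of over 1.5 times. Without a filter on low values 2238 genes were higher and 2785 lower, as more genes were tested. The other scalings and the replicate block moved no Pim value by as much as the spread between libraries. The replicate block gave -3.65 for Pim1, 0.34 for Pim2, against 0.60 without it, and -0.84 for Pim3 over the 6 libraries with 1 residual degree of freedom. Among the named genes the block ended the calls of Cdkn1a, Eif4b, Ubxn7 and Sec31a and called Ccnd2 and Hoxa9. Deviations of libraries of the same number correlated at 0.594, 0.842, -0.574 and -0.857, so the numbers are not shown to pair the libraries.

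Of the 28 named genes outside the family that were called over the 6 libraries, 22 kept the call in every alternative. Some were named for the largest change in a list or for likeness to a Pim gene, so kept calls are partly built into the choice. Signs near 0 turned for genes not called. Leaving out 1 library gave -0.11 to 0.35 for Myc, -0.00068 to 0.15 for Hsp90ab1, -0.035 to 0.11 for Mtch1, -0.074 to 0.031 for Otud5 and -0.10 to 0.11 for Pqbp1. Otud5 was 0.030 with upper quartile and 0.015 with total scaling, Pqbp1 -0.0034 with relative log expression scaling, -8.0e-05 with a pseudocount of 5 and -0.051 with the replicate block, and Hsp90ab1 -0.0022 with the replicate block. The cause was not tested.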
